A study of Homo sapiens with 4 samples.

Results

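The genes described here are 31 known transcriptional targets of p53, chosen by symbol from a fixed list, and all 31 were found among the 23143 gene symbols of the deposited expression table. The cells were A549, an established human lung adenocarcinoma line, in which doxycycline raises the transcription factor GATA4. Polyadenylated RNA was sequenced in 4 libraries, 2 from DOX cells (labelled as overexpressing GATA4) and 2 from noDOX cells (labelled as having its normal level, and in the design text as treated with vehicle). The labels do not say whether the line is 1 clone or whether the replicates came from separate cultures, so a p-value here reflects library-to-library spread that could be technical. No library of cells given doxycycline without the inducible GATA4 was analysed here, so effects of the drug and of GATA4 cannot be told apart. In bulk RNA, fewer expressing cells and less RNA per cell cannot be told apart either.

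p53 is a transcription factor that is kept low in unstressed cells because its target MDM2 marks it for destruction. DNA damage and other stresses relieve that brake, and p53 then activates genes that halt the cell cycle, repair DNA, adjust metabolism or start apoptosis. The comparison asks whether transcripts of these targets differ when GATA4 is raised.

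Values are gene-level FPKM, sequenced fragments relative to transcript length and library total, so that levels can be compared between genes. The read depth is unknown, because the deposited values are FPKM without counts, so no counting interval is given. FPKM sums were 975728 and 1238480 in DOX libraries 1 and 2, against 1381820 and 989493 in noDOX libraries 1 and 2. GATA4 itself was at 75.0 and 48.0 FPKM in the DOX libraries, against 12.2 and 14.5 FPKM in the noDOX libraries (limma, adjusted p = 0.289). Of 6 epithelial markers, the keratins KRT8 and KRT18 were between 1728 and 5245 FPKM in every library. KRT7 was at 197 and 1360 FPKM in the DOX libraries, against 1944 and 1476 FPKM in the noDOX libraries (limma, adjusted p = 0.981), and EPCAM was at 3.83 and 3.08 FPKM in the DOX libraries, against 8.27 and 13.7 FPKM in the noDOX libraries (limma, adjusted p = 0.494). These 2 lay wholly lower on the deposited scale, while the other 4 overlapped with higher mean log2 values in the DOX libraries. KRT19 ran from 7.49 to 87.0 FPKM and CDH1 from 8.73 to 25.8 FPKM over the 4 libraries. CD3E and DCN, markers of T cells and fibroblasts, were listed at 0 throughout. Of 9 markers of blood cells, fibroblasts and endothelium, 1 reached the minimum for testing, the collagen gene COL1A1, at 1.76 and 2.88 FPKM in the DOX libraries, against 3.76 and 8.46 FPKM in the noDOX libraries. The part of these markers in the results for the targets was not tested.

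All 31 targets had a mean of at least 1 FPKM over the 4 libraries and were tested among 12504 such genes. Differences are DOX minus noDOX on the log2(FPKM + 1) scale, which understates the change of low genes, and they were tested with limma, with Benjamini-Hochberg adjustment over all genes tested and a threshold of 0.05. No target passed in either direction (0 of 31), where 0.0240% of all tested genes were called higher and 0.0640% lower. At an unadjusted limma p under 0.05 the count was also 0, against 6.34% of all tested genes. The smallest adjusted p among the targets was 0.789. With 2 libraries against 2 an exact permutation test of a single gene cannot go below p = 0.333.

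The median log2 difference of the targets, -0.06, lay close to the -0.04 over all tested genes. Single targets ran from -0.60 for PLK2 to 1.37 for BTG2. Mean log2 values were higher in the DOX libraries for 11 targets and lower for 20, so 35.5% were higher, beside 43.9% of all tested genes. BTG2 was the 1 target with both DOX libraries above both noDOX libraries, where 14.7% of all tested genes had this order. In 6 targets, PLK2, PLK3, GDF15, BBC3, PHLDA3 and FBXO22, the DOX pair lay below the noDOX pair, beside 17.3% of all tested genes. These 6 of 31 are 19.4% of the targets, near that background.

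How the libraries were scaled changed this split. It changed for all tested genes as well. With upper quartile scaling 14 targets had higher mean log2 values, or 45.2%, beside 50.4% of all tested genes. With quantile normalization the count was 16, or 51.6%, beside 52.2%, and with scaling to the FPKM sum without small RNA genes it was 19, or 61.3%, beside 60.4%. Wholly higher targets numbered 2 with upper quartile scaling, beside 15.1% of all tested genes, 4 with quantile normalization, beside 19.9%, and 2 with scaling to that sum, beside 11.9%. Wholly lower targets numbered 4, beside 14.7%, then 2, beside 14.7%, and 0, beside 9.72%, in the same order of scalings. Scaling to the sum without small RNA genes moved the median of all tested genes by 0.12 on the log2 scale. BTG2 kept its order under all 3 scalings, while none of the 6 lower targets kept theirs under all 3. PLK2 stayed wholly lower with upper quartile scaling and quantile normalization. PLK3, GDF15 and PHLDA3 stayed so with upper quartile scaling only, and BBC3 with quantile normalization only. FBXO22 overlapped under all 3. TP53I3 overlapped on the deposited scale but lay wholly higher under all 3 scalings. MDM2 and EI24 lay wholly higher with quantile normalization only.

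The targets were mostly well expressed. Their median place among all tested genes, ranked by mean FPKM, was the 76.0th percentile, and 20 of the 31 lay above the median gene. BAX stood highest at a mean of 415 FPKM over the 4 libraries, followed by GDF15 at 180 FPKM, TP53I3 at 124 FPKM and CDKN1A at 109 FPKM. SPATA18 was lowest at 1.04 FPKM, below ZMAT3 at 1.51 FPKM and PLK3 at 2.30 FPKM. The highest and lowest genes are far apart beside their spread over libraries, while neighbours such as TP53I3 and CDKN1A have overlapping values.

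**Figure D1:**
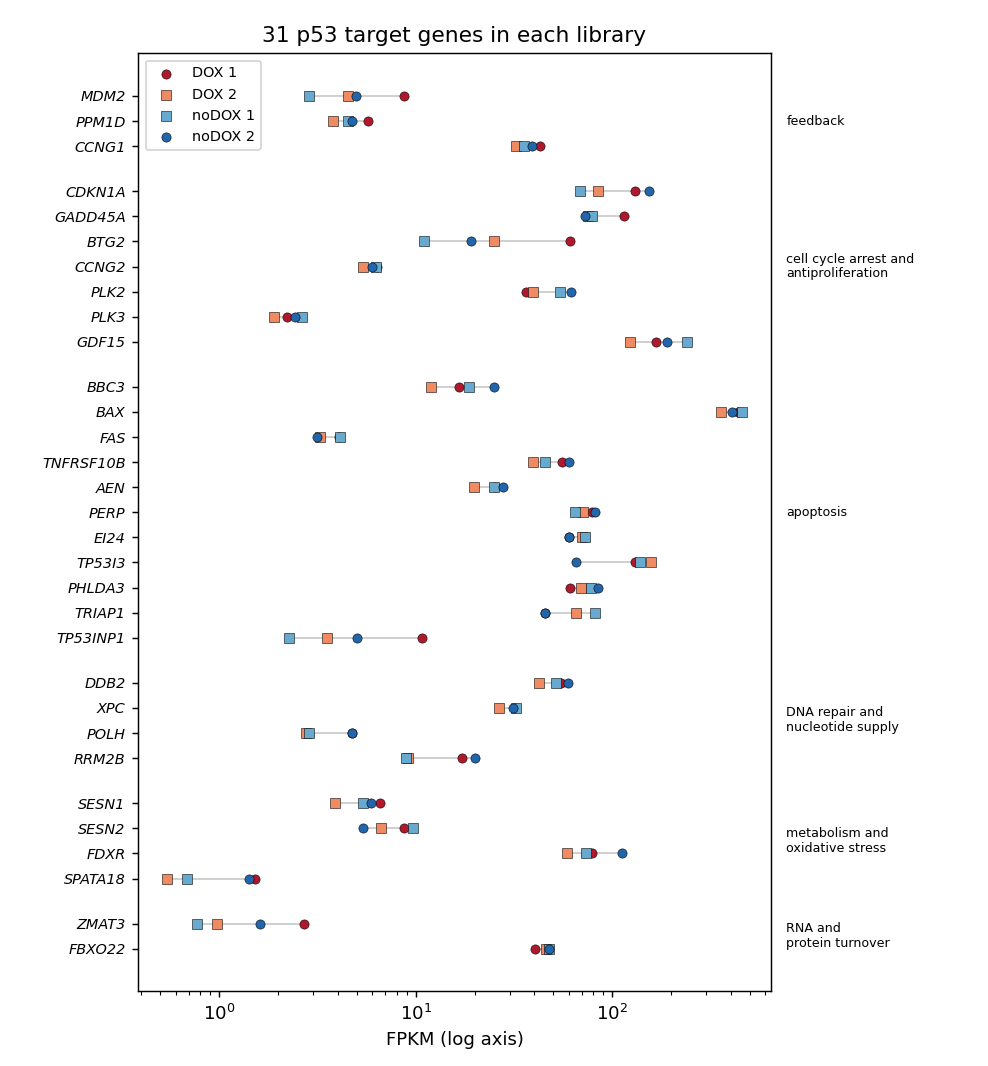
FPKM of the 31 targets in each library on a log axis, grouped by role. Red and orange symbols are DOX libraries 1 and 2, and light and dark blue symbols are noDOX libraries 1 and 2. Colours of the groups are interleaved for most genes, and the circles (DOX 1 and noDOX 2) often lie to the right of the squares (DOX 2 and noDOX 1), as for CDKN1A, RRM2B and ZMAT3.

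The feedback genes hold p53 in check. On the deposited scale the libraries of all 3 overlapped between the groups, beside 14.7% of all tested genes wholly higher and 17.3% wholly lower. With quantile normalization MDM2 lay wholly higher, as did 19.9% of all tested genes. MDM2, the ubiquitin ligase that marks p53 for destruction, was at 8.73 and 4.51 FPKM in DOX libraries 1 and 2, against 2.86 and 4.99 FPKM in noDOX libraries 1 and 2. DOX library 1 was highest and noDOX library 1 lowest, while the other DOX and noDOX libraries lay within 1 FPKM of each other. The group means were 6.62 ± 2.98 FPKM in DOX cells and 3.92 ± 1.50 FPKM in noDOX cells (SD, n = 2 each), a log2 difference of 0.61 (SE 0.38; limma, adjusted p = 0.986), with a 95% interval of -0.41 to 1.62. It was 0.20 without DOX library 1, 1.02 without DOX library 2, 0.29 without noDOX library 1 and 0.92 without noDOX library 2. PPM1D, the WIP1 phosphatase that dampens damage signalling, was at 5.73 and 3.77 FPKM in the DOX libraries, against 4.50 and 4.72 FPKM in the noDOX libraries. CCNG1, cyclin G1, which works with a phosphatase on MDM2, was at 42.9 and 32.3 FPKM in the DOX libraries, against 35.4 and 39.3 FPKM in the noDOX libraries. For these 2 genes the DOX libraries enclosed both noDOX libraries, and the log2 differences were 0.02 and -0.0023.

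Of the 7 genes that slow proliferation, on the deposited scale 1 was wholly higher, 3 wholly lower and 3 overlapped, beside 14.7% of all tested genes wholly higher and 17.3% wholly lower. CDKN1A, the cyclin-dependent kinase inhibitor p21 and the best known p53 target, was at 131 and 84.3 FPKM in DOX libraries 1 and 2, against 68.6 and 153 FPKM in noDOX libraries 1 and 2. The extremes were both noDOX libraries, so the DOX values lay between them. The means were 108 ± 33.1 FPKM in DOX cells and 111 ± 59.7 FPKM in noDOX cells (SD, n = 2 each). The DOX mean was thus slightly lower in FPKM, while the mean log2 value was slightly higher. The log2 difference was 0.04 (SE 0.50; limma, adjusted p = 0.999). Its 95% interval ran from -1.30 to 1.37.

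BTG2, an antiproliferative protein that recruits the messenger RNA deadenylation machinery, was at 61.0 and 25.1 FPKM in DOX libraries 1 and 2, against 11.0 and 19.0 FPKM in noDOX libraries 1 and 2. Both DOX libraries were above both noDOX libraries, but DOX library 1 was far above DOX library 2. The means were 43.0 ± 25.4 FPKM in DOX cells and 15.0 ± 5.68 FPKM in noDOX cells (SD, n = 2 each). DOX cells averaged 2.87 times the noDOX level, and the log2 difference of 1.37 (SE 0.52) had the smallest p of the targets and missed the threshold (limma, adjusted p = 0.789). Without DOX library 1 the log2 difference was 0.75, and without DOX library 2 it was 2.0.

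PLK2, a polo-like kinase that acts in the centrosome cycle, was at 36.5 and 39.5 FPKM in DOX libraries 1 and 2, against 54.5 and 61.9 FPKM in noDOX libraries 1 and 2. The libraries of each group lay close together, with the DOX pair below the noDOX pair. The means were 38.0 ± 2.06 FPKM in DOX cells and 58.2 ± 5.27 FPKM in noDOX cells (SD, n = 2 each), a log2 difference of -0.60 (SE 0.23; limma, adjusted p = 0.793). Its relative PLK3, a stress-responsive kinase, was at 2.20 and 1.89 FPKM in the DOX libraries, against 2.65 and 2.44 FPKM in the noDOX libraries, in the same order but with a log2 difference of -0.22 (limma, adjusted p = 0.999), which was -0.15 without DOX library 2.

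GDF15 encodes a secreted stress cytokine of the TGF-β superfamily. It was at 166 and 122 FPKM in DOX libraries 1 and 2, against 240.4 and 189 FPKM in noDOX libraries 1 and 2, and the highest DOX library was still below the lowest noDOX library. The means were 144 ± 31.1 FPKM in DOX cells and 215 ± 36.2 FPKM in noDOX cells (SD, n = 2 each), a log2 difference of -0.58 (SE 0.33; limma, adjusted p = 0.977). That difference ran from -0.80 without DOX library 1 to -0.36 without DOX library 2. GADD45A, a growth arrest protein induced by DNA damage, was at 114 and 75.5 FPKM in the DOX libraries, against 79.2 and 73.0 FPKM in the noDOX libraries. Only DOX library 1 stood out for it, and without that library the log2 difference of 0.28 became -0.01. CCNG2, an atypical cyclin linked to cell cycle exit, was at 6.36 and 5.42 FPKM in the DOX libraries, against 6.28 and 6.01 FPKM in the noDOX libraries, all within 1 FPKM of each other.

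**Figure D2:**
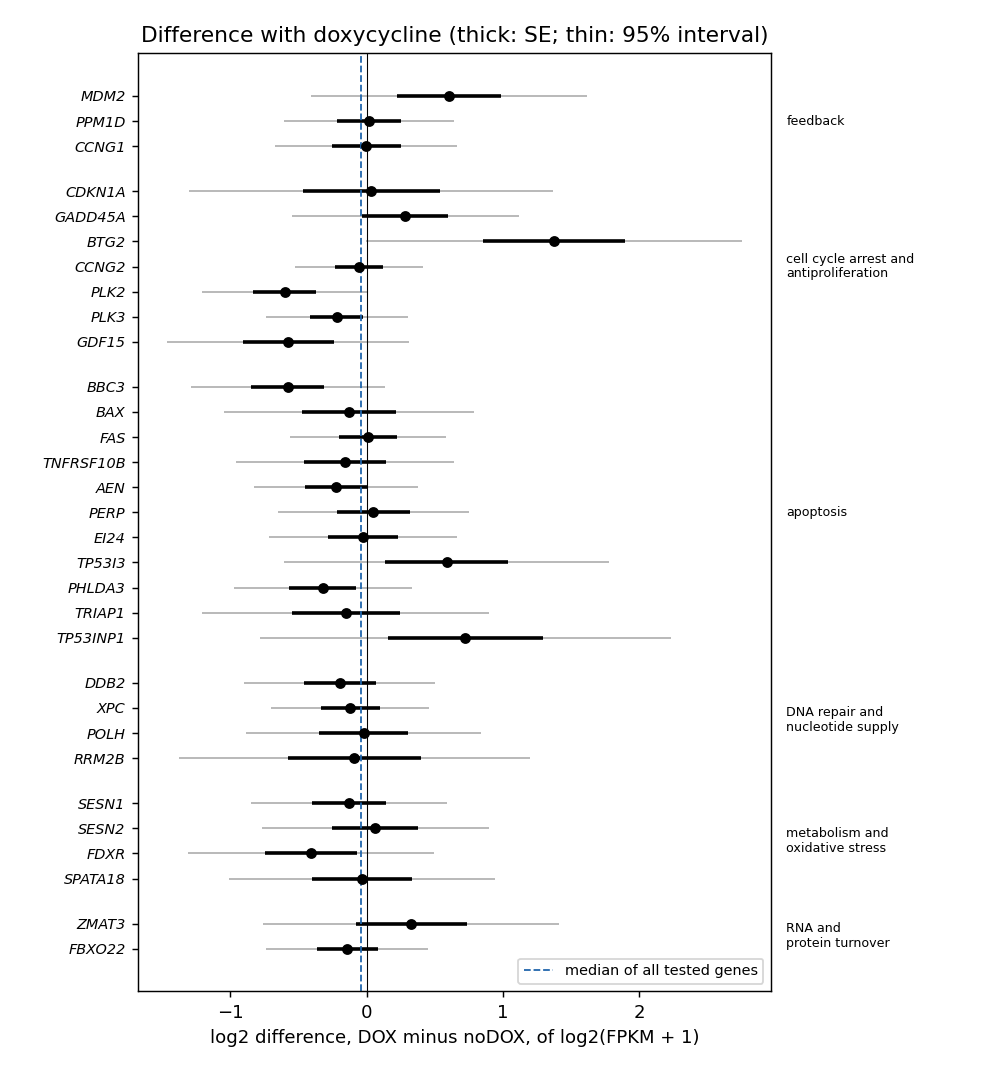
Log2 difference, DOX minus noDOX, of each target on the log2(FPKM + 1) scale, grouped by role, with the standard error (thick) and the 95% interval from limma (thin). The dashed line is the median of all tested genes at -0.04, and every interval includes 0. BTG2 stands farthest to the right and PLK2 farthest to the left.

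Among the 11 genes tied to apoptosis, on the deposited scale BBC3 and PHLDA3 lay wholly lower in the DOX libraries, beside 17.3% of all tested genes, and the other 9 overlapped. BBC3 encodes PUMA, which frees the pore formers of the mitochondrial membrane, and was at 16.6 and 12 FPKM in DOX libraries 1 and 2, against 18.7 and 25.0 FPKM in noDOX libraries 1 and 2. Its means were 14.3 ± 3.28 FPKM in DOX cells and 21.8 ± 4.44 FPKM in noDOX cells (SD, n = 2 each), a log2 difference of -0.58 (SE 0.27; limma, adjusted p = 0.902). It was -0.80 without DOX library 1, -0.36 without DOX library 2 and -0.38 without noDOX library 2. PHLDA3, an inhibitor of AKT signalling, was at 61.2 and 69.1 FPKM in the DOX libraries, against 78.2 and 85.0 FPKM in the noDOX libraries. The order of the groups was the same for both genes, but the PHLDA3 difference was smaller at -0.32 (limma, adjusted p = 0.999).

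BAX, the mitochondrial pore former on which PUMA acts, was at 435 and 359 FPKM in DOX libraries 1 and 2, against 457 and 409 FPKM in noDOX libraries 1 and 2. The groups overlapped, and the log2 difference of -0.13 was smaller than its standard error of 0.34. The death receptor gene FAS was at 4.07 and 3.24 FPKM in the DOX libraries, against 4.09 and 3.15 FPKM in the noDOX libraries, and the TRAIL receptor gene TNFRSF10B was at 55.5 and 39.5 FPKM in the DOX libraries, against 45.5 and 60.3 FPKM in the noDOX libraries. Neither receptor gene separated the groups, with log2 differences of 0.01 and -0.16.

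TP53I3, a quinone oxidoreductase tied to oxidative stress in apoptosis, was at 131 and 158 FPKM in DOX libraries 1 and 2, against 139 and 65.6 FPKM in noDOX libraries 1 and 2. On the deposited scale noDOX library 2 alone was low, and noDOX library 1 lay between the DOX libraries. Under the 3 other scalings both DOX libraries of TP53I3 lay above both noDOX libraries. The means were 145 ± 19.2 FPKM in DOX cells and 102 ± 52.0 FPKM in noDOX cells (SD, n = 2 each), a log2 difference of 0.59 (SE 0.45; limma, adjusted p = 0.999). Without noDOX library 2 the log2 difference was 0.05, and without noDOX library 1 it was 1.12. TP53INP1, a stress protein that also acts in autophagy, was at 10.8 and 3.54 FPKM in DOX libraries 1 and 2, against 2.25 and 5.02 FPKM in noDOX libraries 1 and 2. DOX library 1 was the highest and the other 3 were much lower, so the log2 difference of 0.72 (SE 0.57; limma, adjusted p = 0.999) dropped to 0.04 without DOX library 1 and to 0.28 without noDOX library 1, and was 1.41 without DOX library 2 and 1.17 without noDOX library 2.

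The remaining apoptosis genes showed small differences. AEN, a nuclease that cuts DNA and RNA in dying cells, was at 25.3 and 19.9 FPKM in the DOX libraries, against 25.1 and 27.8 FPKM in the noDOX libraries. PERP, a membrane protein of desmosomes, was at 79.1 and 71.3 FPKM in the DOX libraries, against 64.7 and 81.3 FPKM in the noDOX libraries, and its noDOX libraries enclosed both DOX libraries. EI24, a protein of the endoplasmic reticulum, was at 60.0 and 70.0 FPKM in the DOX libraries, against 72.7 and 60.0 FPKM in the noDOX libraries. TRIAP1, a small mitochondrial protein that opposes apoptosis, was at 45.4 and 65.6 FPKM in the DOX libraries, against 81.5 and 45.4 FPKM in the noDOX libraries. For TRIAP1, DOX library 1 and noDOX library 2 were equally low, which is the reverse of the order for CDKN1A. The log2 differences of these 4 genes ran from -0.22 for AEN to 0.05 for PERP, and that of AEN was -0.39 without DOX library 1 and -0.06 without DOX library 2. EI24, TRIAP1, CCNG1, CCNG2 and POLH have annotated pseudogenes that could share reads, so their values are uncertain to that extent.

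**Figure D3:**
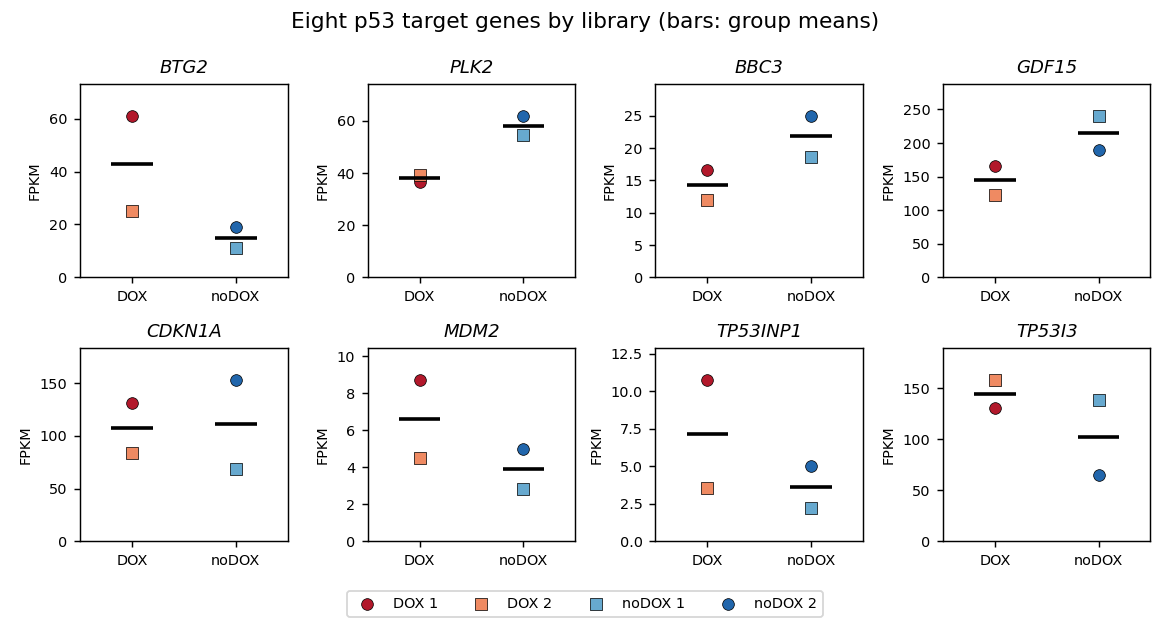
FPKM of 8 targets in each library, with group means as bars, on axes from 0. For BTG2 both DOX libraries lie above both noDOX libraries, and for PLK2, BBC3 and GDF15 they lie below. For CDKN1A, MDM2, TP53INP1 and TP53I3 the groups overlap on this deposited scale. Under other scalings TP53I3, and with quantile normalization MDM2, did not overlap. PLK2, BBC3 and GDF15 each overlapped under some other scaling.

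The 4 genes of DNA repair and nucleotide supply overlapped between the groups, beside 14.7% of all tested genes wholly higher and 17.3% wholly lower. Mean log2 values of the 4 were slightly lower in the DOX libraries on the deposited scale. POLH was higher under all 3 other scalings, and XPC and RRM2B were higher with scaling to the sum without small RNA genes. DDB2, which finds ultraviolet damage in DNA, was at 55.1 and 42.2 FPKM in the DOX libraries, against 51.6 and 59.5 FPKM in the noDOX libraries. XPC, which recognises distorted DNA at the start of nucleotide excision repair, was at 31.9 and 26.6 FPKM in the DOX libraries, against 32.2 and 31.3 FPKM in the noDOX libraries. Both had DOX library 2 as their lowest, with log2 differences of -0.20 and -0.12. Without DOX library 2 that of DDB2 was -0.0081, and without DOX library 1 it was -0.39. POLH, a polymerase that copies past damaged bases, was at 4.72 and 2.78 FPKM in the DOX libraries, against 2.87 and 4.75 FPKM in the noDOX libraries. RRM2B, the p53-induced subunit of ribonucleotide reductase, was at 17.1 and 9.17 FPKM in DOX libraries 1 and 2, against 8.94 and 20.0 FPKM in noDOX libraries 1 and 2. In POLH and RRM2B the higher library of each group was over 1.5 times the lower one, while the differences between the group means were -0.02 and -0.09.

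The metabolic targets gave a similar picture, with 0 of 4 separating the groups on the deposited scale. Beside them 14.7% of all tested genes lay wholly higher and 17.3% wholly lower. SESN1 and SESN2 encode sestrins, which restrain the growth regulator mTORC1. SESN1 was at 6.57 and 3.88 FPKM in the DOX libraries, against 5.38 and 5.93 FPKM in the noDOX libraries, and SESN2 was at 8.67 and 6.69 FPKM in the DOX libraries, against 9.65 and 5.40 FPKM in the noDOX libraries. The log2 differences were -0.13 and 0.06, and the relatives differed in which noDOX library was higher. FDXR, a mitochondrial reductase that passes electrons to ferredoxin, was at 79.1 and 59.0 FPKM in the DOX libraries, against 73.8 and 112 FPKM in the noDOX libraries, with noDOX library 2 alone above the rest and a log2 difference of -0.41 (SE 0.34; limma, adjusted p = 0.999). It was -0.11 without noDOX library 2, -0.71 without noDOX library 1, -0.20 without DOX library 2 and -0.62 without DOX library 1. SPATA18, which acts in the quality control of mitochondria, was at 1.53 and 0.542 FPKM in the DOX libraries, against 0.684 and 1.42 FPKM in the noDOX libraries, close to the minimum for testing.

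ZMAT3, an RNA-binding protein that regulates splicing, was at 2.69 and 0.972 FPKM in the DOX libraries, against 0.768 and 1.60 FPKM in the noDOX libraries. Its log2 difference of 0.33 became -0.12 without DOX library 1. FBXO22, a substrate adaptor of a ubiquitin ligase, was at 40.5 and 45.8 FPKM in the DOX libraries, against 47.5 and 47.8 FPKM in the noDOX libraries. All FBXO22 libraries were within a narrow range, and the DOX pair was lower on the deposited scale but not under the 3 other scalings. The log2 difference was only -0.14 (limma, adjusted p = 0.999), and it was -0.05 without DOX library 1 and -0.23 without DOX library 2. FBXO22, PHLDA3, FAS, XPC, MDM2, CDKN1A, BBC3, SESN1, TP53I3, PLK3, POLH and TNFRSF10B share exon bases with another gene in GENCODE release 29, from 0.113% of their exon bases for POLH to 23.8% for XPC, and whether the counting used strand is not stated. PHLDA3 shares 19.1% of its exon bases with a gene on the same strand, MDM2 3.3% and BBC3 2.39%. Strand use would not separate those.

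The larger gap between libraries of the same group exceeded the difference between the group means for most targets, as it did for most tested genes. This held in 25 of 31, or 80.6%, beside 77.4% of all tested genes. A gap between single libraries varies more than a difference of means, and the larger of 2 gaps was taken. Most genes would therefore meet this without any group difference, so the share does not weigh spread against group difference. The medians that follow also set single-library gaps beside differences of means. The median absolute gap was 0.42 on the log2 scale between the DOX libraries and 0.33 between the noDOX libraries, against a median absolute difference of 0.15 between the groups. Over all tested genes these medians were 0.31, 0.36 and 0.20, so this is not particular to the targets.

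Those gaps shared a direction in many targets. DOX library 1 was above DOX library 2 in 25 of 31, beside 47.7% of all tested genes, and noDOX library 2 was above noDOX library 1 in 20 of 31, beside 48.5%. In 15 targets, 48.4%, DOX library 1 and noDOX library 2 were the 2 highest libraries, beside 26.9% of all tested genes. With upper quartile scaling these counts were 20 targets and 38.2% of tested genes, with quantile normalization 19 and 24.9%, and with scaling to the sum without small RNA genes 27 and 61.2%. Since targets were not independent draws and the order was noticed in these data, no test was made of it.

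In 8 targets, MDM2, CDKN1A, BTG2, TP53INP1, POLH, RRM2B, SPATA18 and ZMAT3, both gaps were at least 0.5 on the log2 scale in that direction, a limit chosen after the values were seen. That is 25.8% of the targets, beside 6.91% of all tested genes. The counts were 11 targets and 12.5% of tested genes with upper quartile scaling, 6 and 5.99% with quantile normalization, and 20 and 32.4% with scaling to the sum without small RNA genes. CDKN1A had a gap of 0.63 between the DOX libraries and 1.15 between the noDOX libraries, and TP53INP1 had gaps of 1.37 between the DOX libraries and 0.89 between the noDOX libraries. TRIAP1 was the 1 target with both gaps at least 0.5 in the opposite direction, beside 12.01% of all tested genes, and 0 targets met this under the 3 other scalings, beside 7.01% of all tested genes with upper quartile scaling, 7.19% with quantile normalization and 1.70% with scaling to the sum without small RNA genes. DOX library 1 and noDOX library 2 also had the lower FPKM sums of their groups, at 975728 and 989493, and a small RNA share of 41.8% and 41.9%, against 39.0% in DOX library 2 and 34.8% in noDOX library 1. The part of library composition in the order of the targets was not tested.

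**Figure D4:**
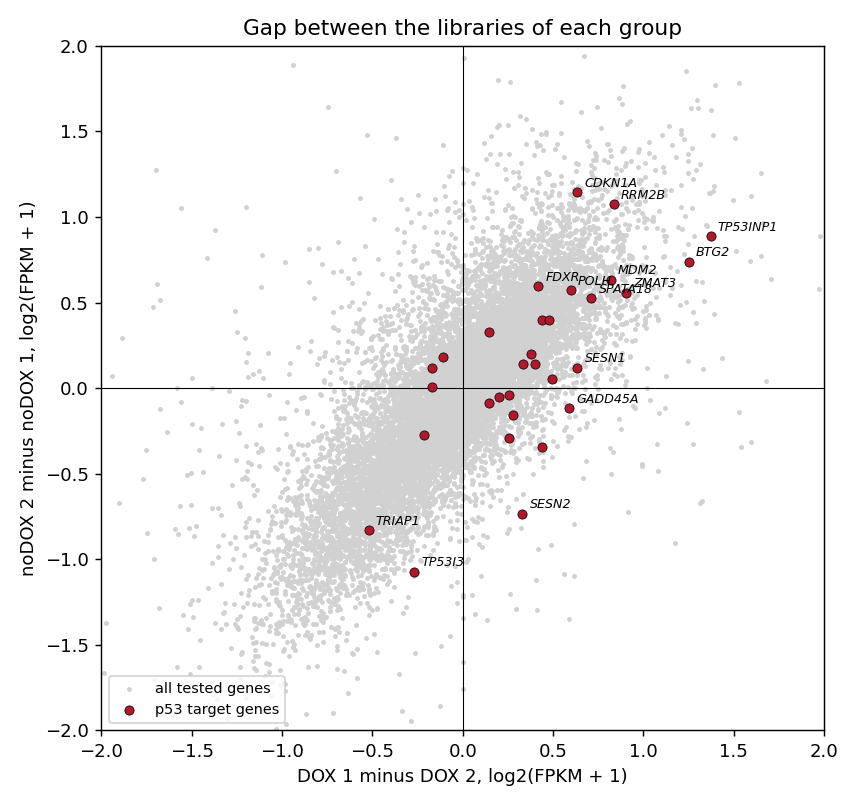
Gap between the 2 libraries of each group on the log2(FPKM + 1) scale, DOX 1 minus DOX 2 on the horizontal axis and noDOX 2 minus noDOX 1 on the vertical axis. Red points are the 31 targets and grey points are tested genes, of which 290 beyond the axes are not drawn. The targets lie mostly to the right of 0, with TP53INP1, BTG2, CDKN1A and RRM2B at the upper right and TRIAP1 and TP53I3 at the lower left.

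The rest of the p53 circuit was described from a list of 24 further genes, of which 23 were tested. On the deposited scale 15 of the 23 genes, or 65.2%, had higher and 8 lower mean log2 values, beside 43.9% of all tested genes higher. In this list 5 lay wholly higher, or 21.7%, beside 14.7% of all tested genes, and 3 wholly lower, or 13.0%, beside 17.3%. The median was 0.06, beside -0.04, and 0 passed the threshold in either direction. In 8 of the 23, 34.8%, DOX library 1 and noDOX library 2 were the 2 highest libraries, beside 26.9% of all tested genes. The checkpoint kinase gene CHEK2 was at 8.35 and 12.7 FPKM in the DOX libraries, against 21.0 and 18.4 FPKM in the noDOX libraries (limma, adjusted p = 0.671). TP53BP2, which encodes a p53-binding protein, and TRIM24, a ubiquitin ligase for p53, had log2 differences of 0.38 and 0.33. TP63, which encodes a transcription factor, and MDM4, a relative of MDM2, were low, between 0.57 and 2.55 FPKM in every library.

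A second list held 46 further p53 targets, of which 39 were tested, and 0 passed the threshold. On the deposited scale mean log2 values were higher in 18, or 46.2%, and lower in 21, beside 43.9% of all tested genes higher. The median was -0.01, beside -0.04. In this list 7 lay wholly higher, or 17.9%, beside 14.7% of all tested genes, and 9 wholly lower, or 23.1%, beside 17.3%. The cytokine gene LIF was at 5.38 and 13.5 FPKM in the DOX libraries, against 30.7 and 35.5 FPKM in the noDOX libraries (limma, adjusted p = 0.566). NINJ1, a membrane protein needed for cell rupture, was at 25.8 and 25.5 FPKM in the DOX libraries, against 41.0 and 46.9 FPKM in the noDOX libraries, and RAP2B, a small GTPase, had a log2 difference of 0.80. In 14 of the 39, 35.9%, DOX library 1 and noDOX library 2 were the 2 highest libraries, beside 26.9%.

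Promoter sequences are shown because p53 and GATA4 both act by binding DNA, and the windows below are the places in the targets' promoters where a searched motif was found. Promoters, from 250 bases before to 50 after each annotated start, came from RefSeq on GRCh38.p14, a later build than the hg19 of the expression values, and 25 of the 31 targets had 1 or more, 36 in all. A p53 site is built of repeats around a short core, so pairs of CATG spaced by 6 bases were searched, and then pairs in which each core was CATG or CAAG or CTTG or CTAG, which include the first kind. Both sets read the same on both strands. The first occurred in 1 of the 36 promoters, beside 0.373% of 35116 promoters in the table, and the second in 5, or 13.9%, beside 4.79%. The GATA hexamers AGATAA and TGATAA, on either strand, occurred in 3 of the 36, or 8.33%, beside 16.3%. The matched stretch, spacer included, is in capitals, and each line gives up to 30 bases, 5′ to 3′ on the gene's strand.
SESN1, p53 pair, chr6:109009013-109009042, minus strand: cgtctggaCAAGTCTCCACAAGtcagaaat
FAS, p53 pair, chr10:88991304-88991333, plus strand: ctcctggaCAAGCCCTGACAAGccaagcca
TRIAP1, p53 pair, chr12:120446335-120446361, minus strand: gggggaggCATGCACGGACATGaagcg
AEN, p53 pair, chr15:88621301-88621330, plus strand: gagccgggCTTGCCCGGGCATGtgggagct
GDF15, p53 pair, chr19:18386181-18386207, plus strand: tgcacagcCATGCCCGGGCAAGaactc
PLK3, GATA hexamer, chr1:44800333-44800362, plus strand: gcaggcgttcatTGATAAaacgctgggctc
CCNG1, GATA hexamer, chr5:163437412-163437441, plus strand: gaatttgaggccAGATAAcgggaagtgtga

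The p53 pair began 119 bases before the start in FAS, 46 before it in SESN1 and 31 before it in AEN, and at base 32 after it in TRIAP1 and GDF15. The GATA hexamer began 32 bases before the start of PLK3, and 147 and 171 before the 2 annotated starts of CCNG1 that reach it. The 5 genes with a p53 pair did not share an order of libraries: SESN1 was highest in DOX library 1, AEN in noDOX library 2, and FAS, TRIAP1 and GDF15 in noDOX library 1. A match of letters is a description and does not show that a factor binds there.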

How the data were processed

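The authors deposited 1 table of FPKM, 1 column per library, made on hg19 with Cuffdiff, Cufflinks 2.2.1, Bowtie and TopHat2 2.0.10 per the submitters' processing notes. Annotation, strand use and scaling between libraries are not stated. Values were taken as log2(FPKM + 1), and genes averaging 1 FPKM or more were tested in limma 3.58.1 (R 4.3.3) on group means. The fit used trended moderation and had 2 residual degrees of freedom. It was also run on simulated data with known changes and independent noise, which lack the shared order of libraries seen here. The targets, lists and tests were chosen with earlier results of these data known. All 31 targets are named, with full statistics for the 6 smallest p, CDKN1A and MDM2. Outside them GATA4 and the 3 smallest p of each further list are named, and 1 gene of the first of those lists is not reported here. Other genes and statistics, and the search with 4 cores, were added after values were seen. Same-numbered libraries did not deviate together (r = -0.35 over tested genes). With 2 libraries per group this cannot show whether the numbers pair libraries, and the main fit used no pairing. Alternatives changed the pseudocount, minimum level, scaling, moderation, replicate block, small RNA genes (MIR, SNOR, RNU, RNY, RN7S and SCARNA symbols) and libraries used.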

Additional observations from a re-analysis of the deposited data

How the results depend on the processing

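No target passed the threshold in either direction under any of the 16 alternatives (limma). The lowest adjusted p, 0.138 for BTG2 (limma), came from a crossed pairing of DOX library 1 with noDOX library 2. That pairing was not planned and was added after the data were seen. The replicate block, like the crossed pairing, called 0 targets. In this balanced design a block changes only the standard errors and p-values. The log2 differences and their median of -0.06 could not move, so their staying the same is no check. Over all tested genes the block called 30 higher and 35 lower, the crossed pairing 2 and 5, and the fit without a block 3 and 8.

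The numbers of targets wholly higher and wholly lower were 2 and 4 with upper quartile scaling, 4 and 2 with quantile normalization and 2 and 0 with scaling to the sum without small RNA genes, which put 19 targets at higher mean log2 values. Leaving out 1 library makes non-overlap likelier for any gene, and 30 of the 31 targets could be tested without DOX library 1 or noDOX library 2. The targets wholly higher numbered 2 to 10. They were 2 without DOX library 1, beside 23.5% of all tested genes, 10 without DOX library 2, beside 30.5%, 7 without noDOX library 1, beside 30.99%, and 7 without noDOX library 2, beside 33.9%. Those wholly lower numbered 6 to 17. They were 17 without DOX library 1, beside 28.4%, 6 without DOX library 2, beside 38.2%, 14 without noDOX library 1, beside 32.9%, and 12 without noDOX library 2, beside 45.3%. Higher mean log2 values were held by 6 to 20 targets, 6 without DOX library 1, beside 49.1%, and 20 without DOX library 2, beside 43.6%. The median of the targets ran from -0.23 to 0.12 in these fits.

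The log2 difference of 18 targets changed sign in 1 or more alternatives, and the cause was not tested. Scaling to the sum without small RNA genes gave 0.13 for CCNG1, 0.064 for CCNG2, 0.0063 for BAX, 0.11 for EI24, 0.012 for XPC, 0.083 for POLH, 0.034 for RRM2B and 0.026 for SPATA18. Upper quartile scaling gave 0.050 for CCNG1, 0.027 for EI24 and 0.019 for POLH, and quantile normalization gave 0.069 for CCNG1, 0.013 for BAX, 0.065 for EI24, 0.013 for POLH and 0.11 for SPATA18. In the fits without 1 library the log2 difference ran from -0.23 to 0.26 for PPM1D, from -0.20 to 0.20 for CCNG1, from -0.54 to 0.61 for CDKN1A, from -0.010 to 0.58 for GADD45A, from -0.15 to 0.044 for CCNG2, from -0.27 to 0.0085 for BAX, from -0.14 to 0.16 for FAS, from -0.40 to 0.082 for TNFRSF10B, from -0.11 to 0.21 for PERP, from -0.16 to 0.11 for EI24, from -0.57 to 0.26 for TRIAP1, from -0.25 to 0.0077 for XPC, from -0.32 to 0.28 for POLH, from -0.63 to 0.45 for RRM2B, from -0.45 to 0.19 for SESN1, from -0.30 to 0.43 for SESN2, from -0.29 to 0.32 for SPATA18 and from -0.12 to 0.78 for ZMAT3. What depth limits is unknown, since the table holds no counts.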
